A study of Drosophila melanogaster with 5 samples.

Results

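The open chromatin of 3 genes of the Drosophila epidermal growth factor receptor (EGFR) pathway was described from FAIRE-seq peaks in 2 regions of the dm3 genome build. The first, called here the ru-rho region, covered 160 kb of chromosome arm 3L from 1340000 to 1500000 and was specified for roughoid (ru) and rhomboid (rho). The second, the pnt region, covered 120 kb of 3R from 19080000 to 19200000 and was specified for pointed (pnt). Peaks with their midpoint in a region were its members, and there were 91 of them among the 20000 deposited peaks, 55 from midline cells and 36 from whole embryos. The regions were chosen from the overlap classes and ranks of these same lists, so every count, rank and width below is a description and carries no p-value. No gene positions on dm3 were used, so peaks are assigned to a region and not to a gene within it, and the placement of the 3 genes is that of the specification.

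FAIRE-seq extracts crosslinked, sheared chromatin with phenol and sequences the DNA that is free of nucleosomes. The midline group consisted of 2 libraries of GFP-positive cells sorted from embryos of the strain sim3.7-Gal4 UAS-mCD8::GFP, aged 6 to 8 hours after egg laying, in which a driver named for single-minded (sim) labels the cells along the ventral midline of the nerve cord. The embryo group consisted of 2 libraries from intact OregonR embryos, also aged 6 to 8 hours, and midline cells are a small part of such embryos. A single library of genomic DNA from whole adult virgin females of the strain y;cn,bw,sp served as input and enters no comparison. The midline cells were dissociated and sorted before a fixation of 5 min, whereas the embryos were fixed for 10 min before they were homogenised, both at 25 °C. Cell type, strain, sorting and fixation differ together between the lists and cannot be told apart, and the identity of the sorted cells was not checked against marker genes. The authors pooled the replicates of each group and deposited 1 list of 10000 peaks per group, so there is no value per replicate, no spread between replicates, and the read depth is unknown.

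In the EGFR pathway, a ligand such as Spitz is made as an inactive membrane protein and must be cut before it can be secreted. Rhomboid and its relative Roughoid are intramembrane proteases that make this cut, and their transcription is a main control on where the pathway is active. Pointed is an ETS transcription factor that acts at the other end of the pathway, downstream of MAP kinase, and switches on target genes. In the embryo, EGFR signalling helps to pattern the ventral ectoderm and the cells of the midline, where rho is transcribed.

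The ru-rho region held more peaks in midline cells than in the whole embryo, and most of its midline peaks had no embryo counterpart. It contained 31 midline and 13 embryo peaks, which covered 11470 and 6015 bp. Of the 31 midline peaks, 21 overlapped no embryo peak and are called midline-only, whereas 10 overlapped an embryo peak by at least 1 bp and are called shared. Over the whole midline list, 39.1% of peaks were midline-only. Of the 13 embryo peaks, 10 were shared and 3 were embryo-only, while 43.4% of the whole embryo list was embryo-only. Each shared peak overlapped exactly 1 peak of the other list, so no embryo peak of the region was split into several midline peaks.

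The pnt region had nearly equal numbers in the lists, and most of its peaks were shared. So were most peaks of each whole list, 6089 of 10000 midline and 5658 of 10000 embryo peaks. It held 24 midline and 23 embryo peaks, which covered 8115 and 9473 bp. In each list 17 of these peaks were shared, again each with exactly 1 partner. The remaining 7 midline peaks were midline-only, against the 39.1% of the whole midline list, and the remaining 6 embryo peaks were embryo-only, against the 43.4% of the whole embryo list. Thus 70.8% of the midline peaks were shared in the pnt region and 32.3% in the ru-rho region. Because the counts chose the regions, this difference was not tested.

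Both regions were rich in midline peaks compared with windows of the same length laid end to end along the arms. Among 739 windows of 160 kb with at least 1 peak, the median was 13 midline peaks and the highest 63, so the 31 of the ru-rho region lay above the median and well under the maximum. The 13 embryo peaks of that region equalled the median of embryo peaks per window, which was also 13. Among 978 windows of 120 kb, the medians were 9.5 midline and 9 embryo peaks, with maxima of 49 and 42, and the 24 and 23 peaks of the pnt region lay above the median in both lists. The regions therefore differed in the embryo list, where ru-rho was ordinary in peak number and pnt was dense.

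**Figure D1:**
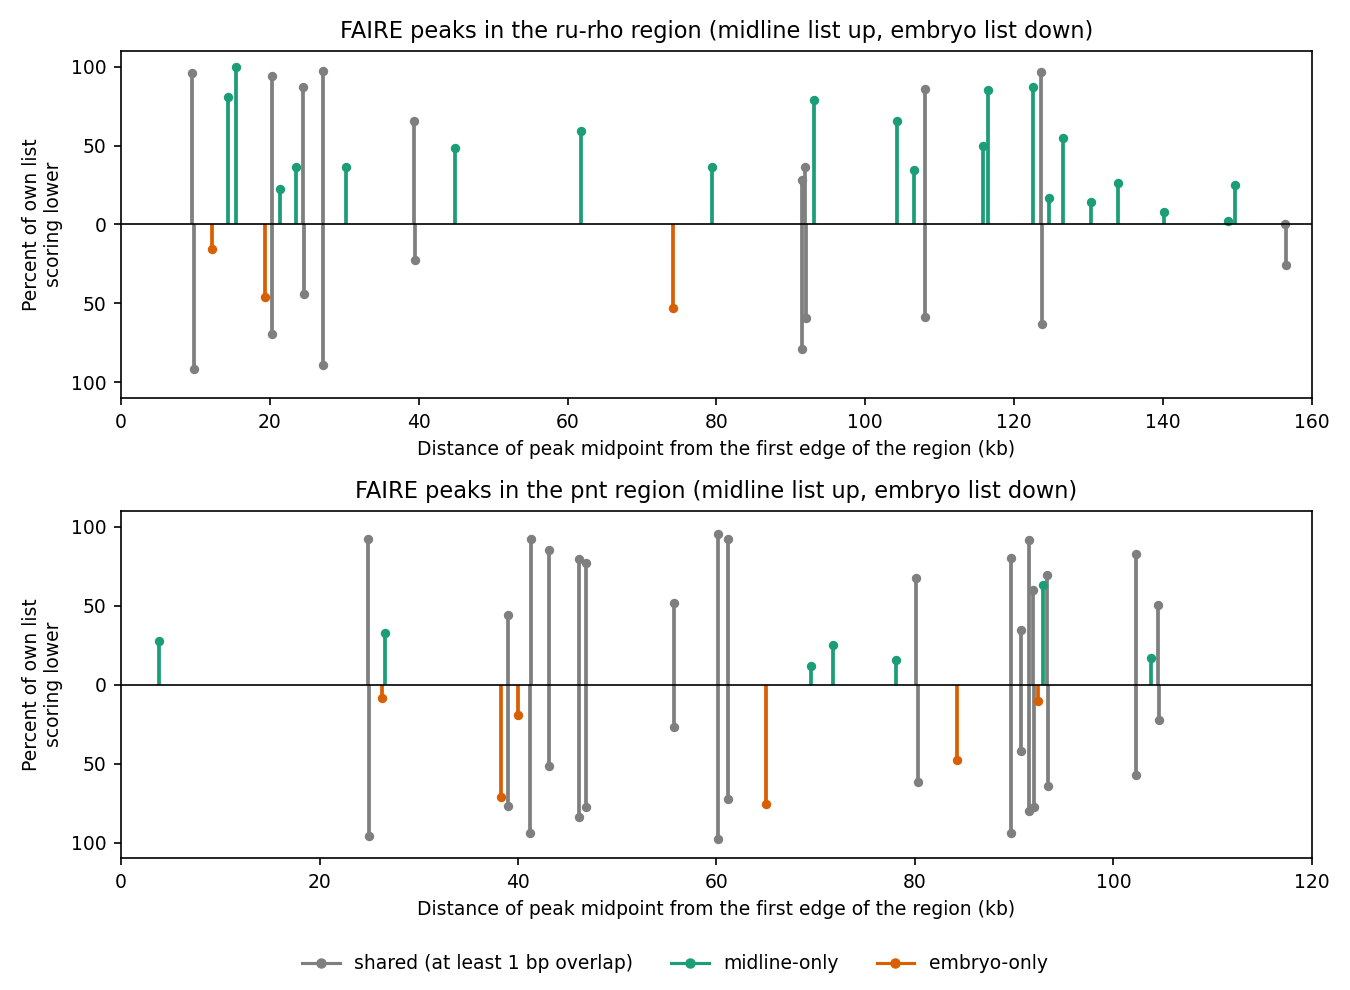
Peaks of the ru-rho region (upper panel) and the pnt region (lower panel), by the distance of the peak midpoint from the first edge of the region in kb (x axis). The height is the percent of the peak's own list that scored lower, with midline peaks drawn upwards and embryo peaks downwards, and the colours mark shared, midline-only and embryo-only peaks. Midline-only peaks are spread over the ru-rho region, 21 of 31 midline peaks, against 39.1% of the whole midline list. In the pnt region 17 of 24 midline peaks are shared, against 6089 of 10000 over the whole midline list.

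Each peak carries a score from the authors, a whole number with no stated scale, and scores were compared only within a list. Rank 1 is the highest score of a list, equal scores share the better rank, and the standing of a peak is the percent of its own list that scored lower. Midline peaks of the ru-rho region had a median standing of 49.4%, the same as the whole midline list. Those of the pnt region had a median standing of 65.3%. For embryo peaks the median standing was 58.4% in the ru-rho region and 71.0% in the pnt region, against 49.8% over the whole embryo list. By score, the medians of the pnt region thus lay above the middle of either list. Ranked by width instead, the midline medians were 50.1% in the pnt region and 69.6% in the ru-rho region. Both regions mixed high and low peaks, with midline ranks from 64 to 9752 in the ru-rho region and from 464 to 8703 in the pnt region.

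The highest midline peak of the ru-rho region was midline-only. It lay at positions 1355034 to 1355708 of 3L, was 675 bp wide, scored 613 and ranked 64 in its list. Of all 3911 midline-only peaks, 3 scored at least as high, itself included. The nearest embryo peak was 2647 bp away, an embryo-only peak at 1352092 to 1352386 that scored 87 and ranked 8330. A second midline-only peak stood between these, at 1354093 to 1354500, with a score of 207 and rank 1859. At this place, then, each list had peaks that the other lacked, and the midline peaks stood far higher in their list than the embryo peak did in its own.

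The next highest midline-only peaks of the ru-rho region lay towards its other end. The second, at 1462020 to 1462943, scored 255, ranked 1293 and was 924 bp wide. Among the 3911 midline-only peaks of the whole list only 2 were at least that wide, itself included. The nearest embryo peak was 737 bp away. The third, at 1456197 to 1456764, scored 238, ranked 1463 and was 568 bp wide, and the nearest embryo peak was 6916 bp away. These wide peaks stood beside a narrower midline-only peak at 1455725 to 1456043, which scored 95 and ranked 4988.

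The shared peak next to the midline-only peak at 1462020 to 1462943 had a very different standing in each list. The midline peak at 1463483 to 1463862 scored 420 and ranked 349, and the embryo peak that it covered, at 1463681 to 1463855, scored 213 and ranked 3647. The embryo peak was 175 bp wide and the midline peak 380 bp. From 1455725 to 1463862 the midline list thus held 4 peaks, of which 3 ranked in its best quartile, and the embryo list held this 1 narrow peak.

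Midline-only peaks also filled the stretch after this shared peak. From 1463856 to 1496295, a span of 32.4 kb, the embryo list had no peak, and the midline list had 7, with scores from 46 to 105. The highest of the 7 lay at 1466279 to 1466742 and ranked 4487, and the 6 others ranked lower. A longer stretch without embryo peaks, 34.3 kb from 1379604 to 1413868, held 2 midline-only peaks that scored 94 and 116. The longest stretch without a midline peak was 17.3 kb, from 1401879 to 1419210, and contained 1 embryo-only peak. That embryo-only peak, at 1413869 to 1414575, was 707 bp wide, scored 164 and ranked 4726, the best rank of the 3 embryo-only peaks of the region. Another, at 1359270 to 1359447, scored 143, ranked 5339 and lay 425 bp from a midline peak.

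Along the ru-rho region, midline-only peaks alternated with shared ones and were found in every 20 kb bin. The bins held between 1 and 5 midline-only peaks, and the 5 were in the bin from 1460001 to 1480000. The bin from 1380001 to 1400000 had 1 midline-only peak and no other peak of either list. Shared peaks were most frequent in the bin from 1360001 to 1380000, with 4. Neighbouring midline peaks lay a median of 3.08 kb apart, measured between their ends, and neighbouring embryo peaks 9.36 kb, against 3.55 and 4.63 kb over the whole lists. By this median, embryo peaks were spaced more widely here than over their list, and midline peaks about as over theirs. Counts per window read differently, with 31 midline peaks against a window median of 13, and 13 embryo peaks against 13. A median gap depends on how peaks cluster, so it does not give the density of the region.

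The highest shared peak of the ru-rho region was at 1366884 to 1367234 in the midline list, where it scored 438 and ranked 307. Its embryo partner at 1366866 to 1367399 scored 508 and ranked 1071. The third highest by midline score, after the peak at 1463483 described above, was at 1349267 to 1349874, with a score of 392 and rank 421. Its partner at 1349241 to 1350316 scored 560, ranked 874, and at 1076 bp was the widest peak of either list in the region. These pairs stood high in both lists.

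Other shared pairs of the region differed widely in standing. The midline peak at 1364287 to 1364649 ranked 1252 and its partner 5542, and the midline peak at 1379115 to 1379531 ranked 3373 and its partner 7651. A pair of neighbouring peaks went the other way. The midline peak at 1431211 to 1431679 ranked 7019 with a score of 64, and its embryo partner ranked 2064 with a score of 341, although their midpoints were 5.5 bp apart. The next midline peak, at 1431845 to 1432023, ranked 6212 and its partner 4030. Immediately beyond these lay a midline-only peak, at 1432881 to 1433299, that scored 195 and ranked 2084. Peaks that stood higher in the embryo list and a peak absent from it were thus neighbours here.

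In 7 of the 10 pairs of the ru-rho region the midline peak had the higher standing, and in 3 the embryo peak did. The median difference, midline minus embryo, was 16.2 percentage points. In the pnt region the midline peak stood higher in 8 of 17 pairs, with a median difference of -0.58 points. Over the 5634 pairs of the whole lists it stood higher in 48.8%, with a median difference of -0.41 points. The pairs of the pnt region were therefore close to the balance of the lists as a whole, and those of the ru-rho region leaned to the midline list. With 10 pairs, no spread between replicates and a region chosen with these values known, this lean is a description.

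**Figure D2:**
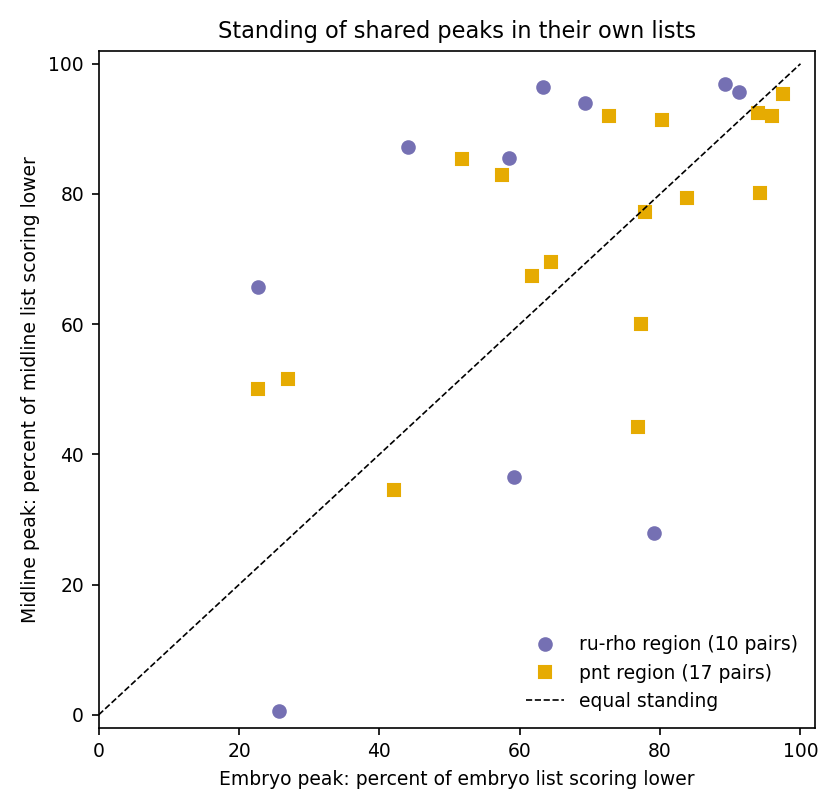
Standing of each shared pair, as the percent of the own list that scored lower, in the embryo list (x axis) and the midline list (y axis), for the 10 pairs of the ru-rho region and the 17 pairs of the pnt region. The dashed line marks equal standing. In the ru-rho region 7 of 10 pairs lie above the line, and in the pnt region 8 of 17.

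The 3 highest shared peaks of the pnt region stood high in both lists. The first, at 19139992 to 19140361 of 3R, scored 378 and ranked 464 in the midline list, and its embryo partner at 19139916 to 19140416 scored 871 and ranked 237. The second, at 19121090 to 19121455, ranked 758 and its partner at 19121024 to 19121439 ranked 600. The third, at 19104621 to 19105212, scored 316 and ranked 794, and its partner at 19104594 to 19105298 scored 762 and ranked 409. The midline peak at 19140935 to 19141421 had the same score and rank as the third, and its partner ranked 2721. For the first 3 pairs the ranks in the lists differed by at most 3.86 percentage points of standing.

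Shared peaks of the pnt region formed blocks. A run of 7 extended from 19121090 to 19141421. Over these 20.3 kb neither list had a peak of its own. A shorter run of 4 lay within 2.64 kb, from 19169379 to 19172021. In the embryo list, 11 of 22 gaps between neighbouring peaks of the region were at most 1 kb long, against 23.3% over the whole list. In the midline list this held for 8 of 23 gaps, against 27.7%. Gaps of at most 1 kb were thus more frequent than over the whole list mainly in the embryo list. The median gap was shorter than over the whole list in both, at 1.2 against 4.63 kb for embryo peaks and 1.6 against 3.55 kb for midline peaks.

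Single pairs of the pnt region differed in standing. The embryo peak at 19118673 to 19119284 ranked 2305 and its midline partner at 19118716 to 19119202 ranked 5493, a difference of -32.7 points in standing. In the other direction, the midline peak at 19122924 to 19123239 ranked 1463 and its partner 4800, a difference of 33.5 points. The pair at 19184449 to 19184659 scored 96 in both lists, but this meant rank 4933 in the midline list and rank 7651 in the embryo list, since the scores of the lists run over different ranges.

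The midline-only peaks of the pnt region had a median standing of 24.9%, close to the 27.9% of all midline-only peaks. The highest, at 19172742 to 19173020, scored 127, ranked 3640 and lay 179 bp from an embryo peak. The second, at 19106546 to 19106702, scored 69, ranked 6670 and lay 208 bp from an embryo-only peak, and the third, at 19083748 to 19083883, scored 64, ranked 7019 and lay 6240 bp from any embryo peak. The other 4 scored between 51 and 61, and 3 of them followed each other from 19149434 to 19158162, in a stretch of 15.0 kb without an embryo peak.

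The embryo-only peaks of the pnt region had a median standing of 33.3%, against 30.6% for all embryo-only peaks. The highest, at 19144881 to 19145095, scored 306, ranked 2407 and lay 3459 bp from the nearest midline peak. The second, at 19118053 to 19118507, scored 265, ranked 2890 and lay 208 bp from a midline peak. The third, at 19164075 to 19164364, scored 147 and ranked 5204. The other 3 scored from 79 to 91. Of all 6, 4 lay within 1 kb of a midline peak, either a shared or a midline-only one, against 23.4% of the 4342 embryo-only peaks of the whole list. For the midline-only peaks of the pnt region, 3 of 7 lay that near an embryo peak, against 28.1%. In the ru-rho region it was 1 of 3 embryo-only and 5 of 21 midline-only peaks. Midline peaks were closely spaced in the pnt region, and whether the nearness goes beyond that was not tested.

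Classes were also compared at similar strength, because in both lists high peaks are shared more often than low ones. Each list was divided into quartiles by rank. In the best quartile of the midline list, 7.39% of 2502 peaks were midline-only. The ru-rho region had 11 peaks in that quartile, of which 5 were midline-only, and the pnt region had 10, of which 0 were midline-only. In the next quartile 28.6% of the list was midline-only, against 4 of 5 peaks in the ru-rho region and 1 of 6 in the pnt region. In the lower quartiles, where the list had 51.6 and 69.4%, the ru-rho region had 7 of 9 and 5 of 6, and the pnt region 3 of 5 and 3 of 3.

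For the embryo list, the best quartile was 8.15% embryo-only. It held 3 peaks of the ru-rho region, of which 0 were embryo-only, and 10 of the pnt region, of which 1 was. In the following quartiles 33.2, 60.7 and 72.1% of the list was embryo-only. There the ru-rho region had 1 of 5, 1 of 3 and 1 of 2, and the pnt region 1 of 6, 1 of 3 and 3 of 4. The midline-only peaks of the ru-rho region thus included strong peaks as well as weak ones. Those of the pnt region fell outside the best quartile of their list, where 0 of its 10 midline peaks were midline-only. With so few peaks, that is close to the 7.39% of the whole list in that quartile. The 5 midline-only peaks of the ru-rho region in the best quartile were the 3 described above and those at 1354093 and 1432881.

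**Figure D3:**
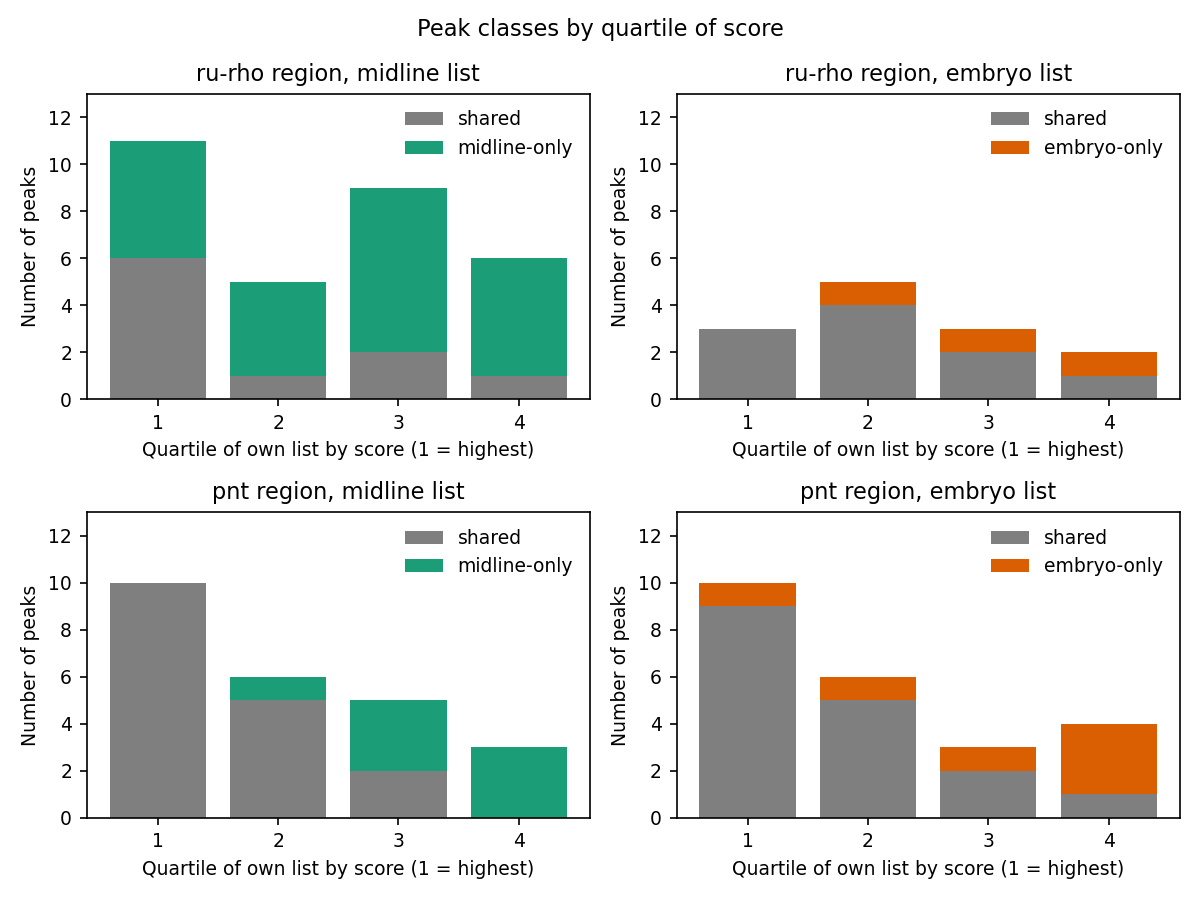
Number of peaks (y axis) of each region and list in each quartile of the list by score (x axis, 1 is the highest), with shared peaks in grey and list-only peaks in colour. In the best quartile of the midline list, 5 of 11 ru-rho peaks and 0 of 10 pnt peaks are midline-only, against 7.39% of all peaks in that quartile.

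By median, shared peaks were wider than list-only ones in both regions and over both whole lists, although the ranges overlapped. In the midline list of the ru-rho region the median width was 398.5 bp for shared and 266 bp for midline-only peaks, against 312 and 221 bp over the whole midline list. The midline-only widths ran from 135 to 924 bp, so the widest midline peak of the region was midline-only. In the embryo list of that region the medians were 461 bp for shared and 295 bp for embryo-only peaks, against 422 and 228 bp over the whole embryo list. In the pnt region the medians were 366 bp for shared and 163 bp for midline-only peaks, and 416 and 252.5 bp for shared and embryo-only peaks of the embryo list. The embryo peak was the wider of the pair in 14 of 17 pairs of the pnt region and in 6 of 10 of the ru-rho region, against 78.5% of all pairs. In the ru-rho region, then, 4 of 10 shared midline peaks were wider than their embryo partners, among them those at 1359873 to 1360687 (815 against 390 bp) and 1447619 to 1448357 (739 against 463 bp).

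The numbers in the authors' peak names bear on peaks that fell below the limit of 10000. They rise along each arm and skip values, so if they were given before the highest peaks were selected, the skipped numbers count peaks that were left out. On that reading the embryo set spanned 35 numbers in the ru-rho region, from its first to its last kept peak, and 13 were kept. That is 37.1%, against 57.0% over the whole set. The midline set spanned 50 numbers there and 31 were kept, which is 62.0% against 65.8%. In the pnt region 23 of 33 embryo numbers (69.7%) and 24 of 29 midline numbers (82.8%) were kept. If the numbers do precede the selection, which the files do not say, 22 embryo and 19 midline calls were left out in the ru-rho region, and 10 and 5 in the pnt region.

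On the same assumption, further calls may lie beside the list-only peaks. At least 1 embryo number was skipped between the flanking embryo peaks of each of the 21 midline-only peaks of the ru-rho region. For none of the 21 were the flanking numbers consecutive. The 3 embryo-only peaks of that region likewise each had at least 1 midline number skipped between the flanking midline peaks. Positions of skipped calls are unknown, so whether any overlaps a midline-only peak was not tested. In the pnt region 2 of 7 midline-only and 5 of 6 embryo-only peaks lay between consecutive numbers of the other list, where, on that assumption, no call was left out. The same was true of 19.8% of all midline-only and 30.4% of all embryo-only peaks.

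The peaks on either side of the region limits were as follows. At the first edge of the ru-rho region, the last midline peak outside, at 1334737 to 1334966, was shared and ranked 4338, and the first inside was the shared peak at 1349267. At the other edge the last midline peak inside, at 1496315 to 1496554, was shared and ranked 9752, and the first outside, at 1500714 to 1500854, was midline-only and ranked 8990. The embryo peaks next to these edges were all shared. Around the pnt region, the midline peaks at 19077059 to 19077353 (shared, rank 6972) and 19212549 to 19212775 (midline-only, rank 8703) were the nearest outside. The nearest embryo peaks outside were at 19076959 to 19077507 (shared, rank 1937) and 19234353 to 19234564 (embryo-only, rank 3458).

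The neighbours of the 3 genes were read from the RefSeq annotation of Release 6, a later build, for names and order only. In that annotation 5 protein-coding genes lie between ru and rho (CG32320, CG9168, FucTD, CG9173 and SA2), together with 9 tRNA genes, and Ptp61F, a gene for a protein tyrosine phosphatase, spans both. The next protein-coding gene but one after rho is stet, a further member of the rhomboid protease family. The gene before pnt is bb8 and the one after it is PolE1, which encodes a subunit of DNA polymerase epsilon. A peak of the ru-rho region could therefore belong to genes other than ru and rho, and the lists do not say which gene a peak acts on. Of 30 EGFR pathway genes listed from textbook knowledge, 29 were matched by symbol in that annotation, but none had a position on dm3, so the peaks of the other pathway genes were not counted here.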

How the data were processed

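FAIRE-seq was done on 2 libraries of sorted midline cells and 2 of whole embryos, with 1 genomic input. Per the submitters' processing notes, CASAVA 1.8.2, Bowtie2, SAMtools, bedtools and MACS2 were used on dm3; the sources used here do not give their roles, their settings or the use of the input. Per the file and peak names, the authors called peaks on pooled replicates and kept the 10000 highest. The deposited score of each peak is a whole number of unstated scale and was used only for ranks within a list. There are 0 unused columns of per-sample values.

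Peaks were assigned to a region by midpoint. Sharing required an overlap of at least 1 bp with any peak of the other list. Shared peaks were paired by largest overlap. Coordinates are 1-based on dm3. The members and the pathway list were chosen with earlier results of these data known. The peaks printed were the 3 highest of each class in each region and those next to the edges, and further peaks were named after their values were seen. No test was made, since the counts chose the regions and there are no replicate values. The counting was tested on simulated data. Other settings changed the overlap rule, width, list length, region limits and measure of strength. Depth is unknown, so no interval for counting error is given. No sequence is printed. Python 3.11.15, numpy 2.4.6, pandas 2.3.3, scipy 1.17.1 and matplotlib 3.10.9 were used.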

Additional observations from a re-analysis of the deposited data

How the results depend on the processing

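Of 46 values under alternatives, 35 stayed within 1.5 times the reported count, or within the 95% order-statistic interval of the median, and 11 did not. With the 5000 highest peaks of each list, the ru-rho region had 10 midline-only and 5 shared midline peaks, and the pnt region 3 midline-only and 3 embryo-only peaks, when 33.0% of midline and 36.6% of embryo peaks overall were list-only (39.1 and 43.4% as reported). With the 5000 highest of one list against the whole other list, chosen after seeing the data, the ru-rho region had 8 midline-only and 1 embryo-only peak, and the pnt region 1 and 2 (17.9 and 20.7% list-only overall). These settings drop peaks by construction, and in both the midline-only peaks outnumbered the shared ones in the ru-rho region, by 10 to 5 and 8 to 7. A reciprocal overlap of 50% gave 6 embryo-only peaks in the ru-rho region (whole lists 53.2% list-only), and narrowing the region by 20 kb at each end gave 1, as fewer peaks remained. Ranked by width, embryo peaks of the ru-rho region had a median standing of 72.0% in place of 58.4%. Those of the pnt region had 64.8% in place of 71.0%. Midline peaks had 69.6% in place of 49.4% in the ru-rho region, and 50.1% in place of 65.3% in the pnt region. The midline shifts stayed within the 95% intervals, which were wide (36.5 to 78.8% and 44.2 to 80.2%). They nevertheless reversed the order of the regions in the midline list. The cause of these shifts was not tested. No paired analysis was possible because each list pools its replicates, which also meant that leaving out a replicate could not be run. Since depth is unknown, a peak absent from a list may have been closed or undetected.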
